A study of Mus musculus with 4 samples.

Results

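Collecting duct nuclei of the deep inner medulla with little Fxyd4 were picked from single-nucleus RNA-seq of mouse kidney slices enriched for medulla. They were picked by their unique molecular identifiers (UMIs, each marking 1 captured RNA molecule). A nucleus was taken when it held at least 5 UMIs of Aqp2, at least 10 UMIs of Cryab, 0 UMIs of Scnn1b and Scnn1g, and at most 4 UMIs of Fxyd4. This rule found 345 nuclei among the 27343 nuclei kept, 157 and 77 in control mice 1 and 2 and 81 and 30 in knockout mice 1 and 2. They are called Fxyd4-low nuclei here. The 278 nuclei that met the same limits on Aqp2, Cryab, Scnn1b and Scnn1g but held at least 5 UMIs of Fxyd4 are called Fxyd4-high nuclei and served as the closest comparison.

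All 4 mice were male and 12 weeks old, and each gave 1 library from a slice of kidney. The cortex of the slice had been trimmed to enrich for medullary cells, and proximal tubule nuclei remained. Both knockout mice carried the genotype label Cre+,Tfap2aFlox/Flox, and both control mice were Cre- littermates with the same homozygous floxed Tfap2a alleles, so the groups differed in Cre and shared the floxed alleles. The Cre is driven by Hoxb7 and acts in the ureteric lineage, from which the collecting duct derives, and in lower urinary tract epithelium. The labels give no strain, and the UMIs were counted from the 3' end of transcripts, so UMIs of Tfap2a do not check that the floxed exons were removed.

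The libraries held between 22179410 and 44964099 UMIs, and the nuclei kept had a median of 2506 to 2797 UMIs. Fxyd4-low nuclei were deeper, with a median of 3865 to 4833 UMIs and 2252 to 2558 genes per mouse. Their summed depth was unequal, from 134255 UMIs in knockout mouse 2 to 720525 in control mouse 1. The median share of mitochondrial UMIs in Fxyd4-low nuclei was 1.48% and 0.583% in controls and 0.828% and 0.337% in knockouts, so it separated mice numbered 1 from mice numbered 2 within each genotype. No barcode of an Fxyd4-low nucleus occurred in the Fxyd4-low nuclei of another library.

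The inner medullary collecting duct is the last segment in which the kidney sets the water content of urine. Its principal cells insert the water channel Aqp2 in response to vasopressin and pass urea into the interstitium through products of Slc14a2. Cells of the deep medulla live in very concentrated surroundings and balance them with organic osmolytes, such as the sorbitol made by the aldose reductase Akr1b3, and with chaperones such as the small heat shock protein Cryab. Towards the cortex, principal cells also carry the epithelial sodium channel, whose subunits include Scnn1b and Scnn1g, and Fxyd4, a regulator of the sodium pump that is also called CHIF.

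The genes read by the rule had these levels, given as a description. Cryab, on chromosome 9 from 50745951 to 50756636 in mm10, stood at 21927 and 8555 CPM (UMIs of the gene per 1000000 UMIs of the class in that mouse) in controls and at 19939 and 13236 CPM in knockouts. Cryab was thus higher in both mice numbered 1 than in both mice numbered 2. Aqp2, on chromosome 15 from 99579056 to 99584545, ranged from 4679 CPM in knockout mouse 1 to 5359 CPM in control mouse 1. It was lower in both knockout mice than in both control mice. Fxyd4, on chromosome 6 from 117933558 to 117937714, had 172 and 436 CPM in controls and 259 and 439 CPM in knockouts. Of the 345 nuclei, 138 had no Fxyd4 UMI, and 94 of these came from control mouse 1. Near the limit, 32 nuclei held 4 UMIs of Fxyd4 and were inside the rule, and 34 held 5 and were outside. When the limit was set at 0.1% of the UMIs of a nucleus instead, 355 nuclei passed and 335 of them were the same nuclei.

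The markers that the rule did not read were higher in Fxyd4-low nuclei than over all other nuclei in every mouse. Akr1b3 (ENSMUSG00000001642, chromosome 6 from 34303930 to 34317489) stood at 7149, 6593, 8550 and 7538 CPM in the order control mouse 1, control mouse 2, knockout mouse 1 and knockout mouse 2. In the same order of mice, Slc14a2 (chromosome 18), which encodes urea transporters, stood at 826, 722, 736 and 953 CPM. Wnt4 (chromosome 4 from 137277635 to 137299501), a secreted Wnt ligand, stood at 981, 1017, 909 and 812 CPM. S100a6 (chromosome 3 from 90612894 to 90614414), a calcium-binding protein, stood at 3184, 3643, 3540 and 3143 CPM. The 4 genes therefore varied little among the mice, unlike Cryab. Over all other nuclei kept, their mean levels were 318 CPM for Akr1b3, 17.4 CPM for Slc14a2, 30.9 CPM for Wnt4 and 219 CPM for S100a6. Fxyd4-high nuclei carried these markers too. In the same order of mice, Wnt4 stood there at 691, 731, 790 and 842 CPM, so it was not lower there in knockout mouse 2. S100a6 stood at 2136, 2225, 2781 and 1812 CPM in Fxyd4-high nuclei. Akr1b3, Slc14a2 and S100a6 were lower in Fxyd4-high than in Fxyd4-low nuclei in each mouse.

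Detection in single nuclei set Fxyd4-low nuclei apart from proximal tubule nuclei, and less from Fxyd4-high nuclei. After each nucleus was thinned to 2000 UMIs, Slc14a2 was seen in 64.5% to 80.0% of Fxyd4-low nuclei per mouse and in 0.169% to 0.433% of proximal tubule nuclei, which should lack it. Without thinning the shares were 89.8% to 93.5% and 0.431% to 0.782%, at median depths of 3865 to 4833 and 3024 to 3764 UMIs. Akr1b3 was seen in 96.7% to 100% of thinned Fxyd4-low nuclei and in 6.33% to 9.91% of thinned proximal tubule nuclei. Among thinned Fxyd4-high nuclei, Slc14a2 was seen in 31.75% to 64.1% per mouse and Akr1b3 in 85.7% to 98.3%. In control mouse 2 thinned Slc14a2 was seen in 64.5% of Fxyd4-low and 64.1% of Fxyd4-high nuclei. Thinning left out 7, 1, 1 and 0 Fxyd4-low nuclei that were too shallow. In barcodes with under 100 UMIs, which hold free RNA, Akr1b3 stood at 342 to 764 CPM and Slc14a2 at 15.9 to 37.4 CPM.

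The sequence before the transcript start is shown for Aqp2, the water channel that defines principal cells, and for Wnt4, a marker outside the rule. Both were read from RefSeq (GRCm38.p6, the same assembly as mm10) as the 250 bases before the start, on the plus strand and 5' to 3', at chr15:99578806-99579055 and chr4:137277385-137277634. Capitals mark matches to the AP-2 motif GCCNNNGGC, which reads the same on both strands, and to the core of the cyclic AMP response element, TGACG or CGTCA on the other strand.
Aqp2: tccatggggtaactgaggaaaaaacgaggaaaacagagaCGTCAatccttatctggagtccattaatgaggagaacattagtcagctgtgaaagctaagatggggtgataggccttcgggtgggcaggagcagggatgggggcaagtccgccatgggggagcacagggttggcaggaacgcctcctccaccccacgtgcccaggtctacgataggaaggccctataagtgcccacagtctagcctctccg
Wnt4: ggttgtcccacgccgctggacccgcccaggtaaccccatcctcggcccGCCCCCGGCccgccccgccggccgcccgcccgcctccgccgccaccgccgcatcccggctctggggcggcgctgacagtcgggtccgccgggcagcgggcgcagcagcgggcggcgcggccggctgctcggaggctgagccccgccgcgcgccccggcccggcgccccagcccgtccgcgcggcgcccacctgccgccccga
The AP-2 motif matched once before Wnt4 and not before Aqp2, and the core of the cyclic AMP response element matched once before Aqp2 and not before Wnt4. Over 32851 windows of the same length before RefSeq starts, 13.7% held the AP-2 motif and 17.8% held the other. Neither window held both motifs, and a match is a string of letters and not a measured binding site.

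Against all other nuclei, the genes that stood out furthest were led by Slc14a2, Wnt4 and Akr1b3, with log2 ratios of mean CPM of 4.90, 4.52 and 4.51 after 10 CPM were added. Next came Elf5, an ETS transcription factor, with a log2 ratio of 4.41, and Tspan6, a tetraspanin, with 4.26. The small heat shock protein Hspb1 had 4.14, the mucin Muc20 had 4.06 and the water channel Aqp4 had 4.02. Tm6sf1, Cryab, which the rule read, and Heg1 followed, between 3.93 and 4.00. Each of these genes was higher in Fxyd4-low nuclei than over all other nuclei in all 4 mice, and no test was run because the rule chose these nuclei. Aqp4 was not particular to them. It averaged 1736 CPM in Fxyd4-low nuclei and 2432 CPM in Fxyd4-high nuclei with 5 to 6 UMIs of Fxyd4.

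**Figure D1:**
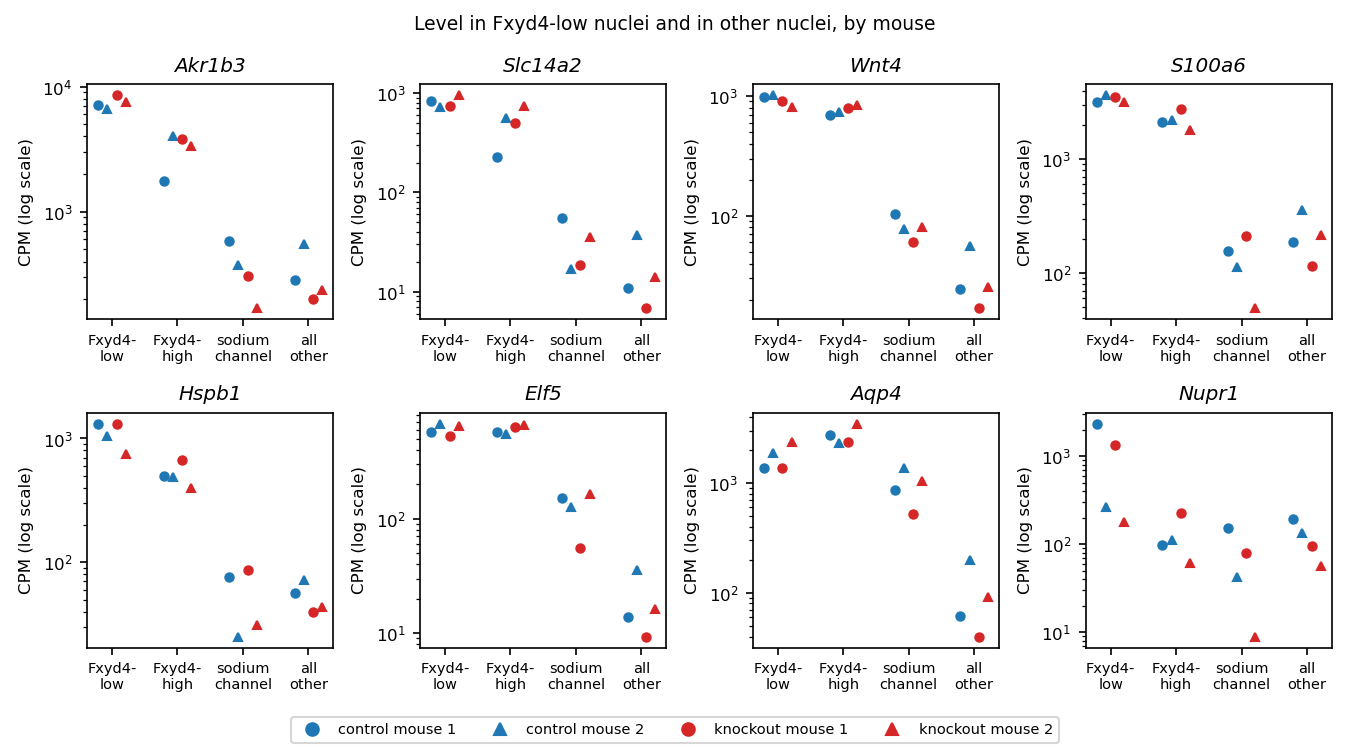
Level of 8 genes in CPM (log scale) in Fxyd4-low, Fxyd4-high and sodium channel nuclei and in all other nuclei (every nucleus outside the rule, those classes included), 1 point per mouse. Sodium channel nuclei held at least 5 UMIs of Aqp2 and at least 1 UMI of Scnn1b or Scnn1g. Akr1b3 stands between 6593 and 8550 CPM in Fxyd4-low nuclei, above all Fxyd4-high points, and Nupr1 parts the mice numbered 1 (circles) from those numbered 2 (triangles).

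Against Fxyd4-high nuclei the differences were smaller and involved other genes. Nupr1, a stress-induced chromatin protein, was at 1035 CPM on average in Fxyd4-low and at 124 CPM in Fxyd4-high nuclei, a log2 ratio of 2.97. Plat, tissue plasminogen activator, had a log2 ratio of 2.55, and Krt19, a keratin, had 2.45. Prkar2b, a regulatory subunit of protein kinase A, had 2.41, with 125 CPM against 15.3 CPM. Prss35, Meox2, Med12l, Tm6sf1, Pdlim1, the malic enzyme Me1 and the amino acid transporter Slc38a11 followed with 1.93 to 2.34. These 11 genes were higher in all 4 mice, while Slc12a3, with a log2 ratio of 2.38, was higher in 2 mice only.

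Nupr1 and Plat varied widely among the mice. Nupr1 stood at 2357 and 265 CPM in control mice 1 and 2 and at 1341 and 179 CPM in the knockout pair, so both mice numbered 1 were far above both mice numbered 2. Plat stood at 483 and 91.9 CPM in controls and at 405 and 253 CPM in knockouts. The same mice had more Cryab, more mitochondrial UMIs and more nuclei without Fxyd4, and the part of these in the levels of Nupr1 and Plat was not tested.

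Genes lower in Fxyd4-low than in Fxyd4-high nuclei were led by Fxyd4 itself, which the rule set. After it came Ctgf, a matricellular protein, at 6.96 against 86.3 CPM with a log2 ratio of -2.51, the kinase Cdk14 with -2.18 and the exchange factor Vav3 with -2.16. Aqp3, the basolateral water and glycerol channel of principal cells, stood at 89.2 against 378 CPM, a log2 ratio of -1.97. Gsdmc2, Pdzk1ip1, Tmem229a, Spink8, Upk3b and Soat1 lay between -2.01 and -1.85. Each of these genes was lower in all 4 mice.

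Levels of several genes differed with the number of Fxyd4 UMIs among the 623 nuclei of the gate without its Fxyd4 limit. From nuclei with 0 UMIs of Fxyd4 to nuclei with at least 20, the mean over mice went from 8195 to 2082 CPM for Akr1b3, from 915 to 289 CPM for Slc14a2 and from 3219 to 900 CPM for S100a6. Over the same bins Aqp2 went from 4273 to 12453 CPM, Aqp3 from 44.8 to 488 CPM and Aqp4 from 1551 to 2994 CPM. Wnt4 moved less, from 945 to 771 CPM, and so did Nfat5, the tonicity-responsive transcription factor, from 1092 to 1043 CPM, and the vasopressin receptor Avpr2, from 209 to 256 CPM.

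Mean levels of Akr1b3 and Slc14a2 differed in how they compared across the limit of 4 UMIs. Akr1b3 stood at 8195, 7120 and 6298 CPM in the bins of 0, 1 to 2 and 3 to 4 UMIs, all inside the rule, and at 4415 CPM in the bin of 5 to 6. From the bin of 3 to 4 to that of 5 to 6 it was lower in 3 mice, but in control mouse 2 it stood at 5470 and then 5747 CPM. Slc14a2 stood at 719 and 703 CPM in the 2 bins on either side of the limit. S100a6 was highest at 3 to 4 UMIs, with 3672 CPM, and was clearly lower only from 10 UMIs on, with 1796 CPM. Median depth was 4336 to 5705 UMIs over the bins, and the last bin held 35 nuclei. Because the bins were cut by Fxyd4, they are a description, and nuclei of 1 mouse share a library.

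**Figure D2:**
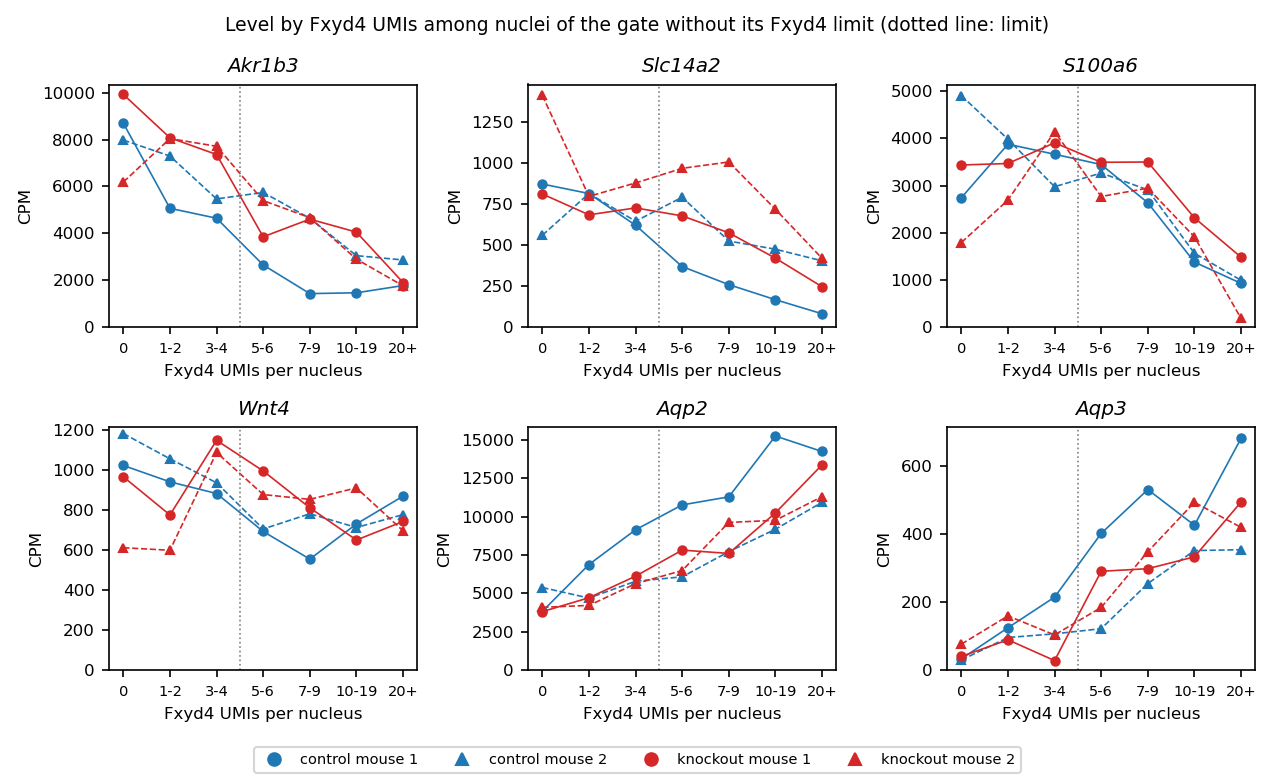
Level in CPM of 6 genes in nuclei of the gate without its Fxyd4 limit, by the number of Fxyd4 UMIs in the nucleus, with 1 line per mouse and the limit of the rule as a dotted line. Akr1b3, Slc14a2 and S100a6 are lower and Aqp2 and Aqp3 higher in the last bin than in the first, and the bins of 3 to 4 and 5 to 6 UMIs differ in the mean for Akr1b3 (6298 and 4415 CPM, but not lower in control mouse 2) more than for Slc14a2 (719 and 703 CPM).

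Markers of the proximal tubule, thick limb and intercalated cells were lower in Fxyd4-low than in all other nuclei, and those of the pelvis and thin limb were not. The summed level of the 8 proximal tubule markers was 863 and 544 CPM in controls and 1248 and 447 CPM in knockouts, against 7753 to 9514 CPM over all other nuclei. The 6 thick ascending limb markers summed to 473 to 545 CPM, against 5620 to 8899 CPM over all other nuclei. The 6 intercalated cell markers summed to 6.94 to 24.0 CPM, against 205 to 292 CPM over all other nuclei, with Foxi1, Atp6v0d2 and Kit at 0. The 8 pelvic epithelium markers summed to 353 and 239 CPM in controls and 229 and 194 CPM in knockouts, against 118 and 298 and against 65.8 and 126 CPM over all other nuclei, and were higher in each mouse except control mouse 2. Of them, Upk1b and Krt5 were at 0, and Krt19 gave 176 and 68 UMIs in controls and 78 and 16 in knockouts. The 6 thin limb markers summed to 22801 and 9314 CPM in controls and 20742 and 14212 CPM in knockouts, against 946 to 1671 CPM over all other nuclei, but this list holds Cryab, which the rule read, and Slc14a2. Of its other genes, Bst1 was at 0, Sptssb had 1 UMI in knockout mouse 2 and 0 elsewhere, and Aqp1 stood at 14.9 to 50.7 CPM. The 6 sodium channel principal cell markers, of which the rule read Scnn1b, Scnn1g and Fxyd4, summed to 268 and 533 CPM in controls and 341 and 581 CPM in knockouts. The 3 podocyte markers summed to 43.0 CPM in control mouse 1, 2.67 CPM in knockout mouse 1 and 0 in the other mice. Endothelial, interstitial and immune markers summed to at most 48.0, 7.45 and 24.0 CPM, with Ptprc at 0. Distal convoluted tubule markers summed to 18.0 and 15.8 CPM in controls and 93.3 and 492 CPM in knockouts, and connecting tubule markers to 41.6 and 144 against 307 and 335 CPM.

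Fxyd4-low nuclei made up 2.03% (95% exact binomial interval 1.73% to 2.37%) and 1.42% (1.12% to 1.77%) of nuclei in controls. In the knockout mice they made up 1.01% (0.805% to 1.26%) and 0.486% (0.328% to 0.693%). Neither knockout mouse reached the lower of the control mice, with 1.72% ± 0.432 (SD, n = 2) in controls and 0.749% ± 0.373 (SD, n = 2) in knockouts, a log2 ratio of -1.20. The exact permutation test over mice, two-sided, gave p = 0.33, the smallest that 2 mice against 2 allow. The intervals cover counting error only.

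The difference depended on what the nuclei were set against. Among nuclei outside the proximal tubule the shares were 4.30% and 2.20% in controls and 2.45% and 1.02% in knockouts, which overlap (exact permutation p = 0.67). Among nuclei with at least 5 UMIs of Aqp2 they were 50% and 16.7% against 28.2% and 17.0% (exact permutation p = 1). The mass of cortex and medulla in each slice is not given in the labels, and a change in Fxyd4-low cells and a difference in the slices cannot be told apart.

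Within the gate without its Fxyd4 limit, the share of Fxyd4-low nuclei separated mice numbered 1 from mice numbered 2 in each genotype and overlapped between genotypes. Fxyd4-low nuclei were 71.4% and 39.5% of that gate in control mice 1 and 2 and 69.2% and 33.0% in the knockout pair. The gate without its Fxyd4 limit held 2.84% and 3.59% of nuclei in controls and 1.46% and 1.47% in knockouts. The larger group that spans Fxyd4-low and Fxyd4-high nuclei was thus lower in both knockout mice, with an exact permutation p of 0.33. Both of these views were added after the data were seen.

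**Figure D3:**
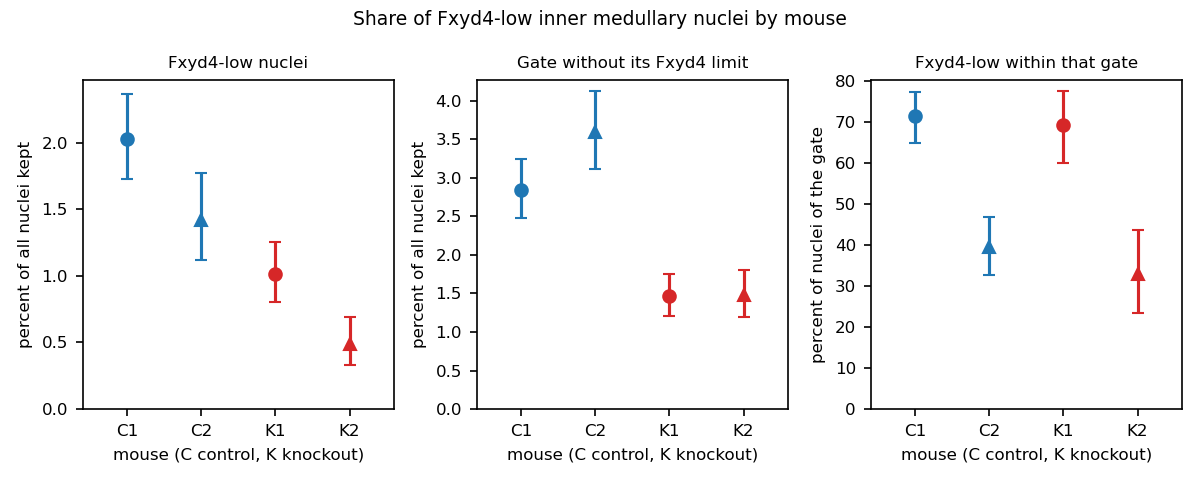
Share of Fxyd4-low nuclei among all nuclei kept (left), share of the gate without its Fxyd4 limit (middle) and share of Fxyd4-low nuclei within that gate (right), 1 point per mouse with exact 95% binomial intervals. The left panel runs from 2.03% in control mouse 1 to 0.486% in knockout mouse 2, and the right panel puts both mice numbered 1 near 70% and both numbered 2 below 40%.

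The test of genotype within Fxyd4-low nuclei found no gene past the threshold. UMIs were summed per mouse, and among 10956 genes with at least 10 UMIs, the quasi-likelihood test of edgeR, adjusted by Benjamini-Hochberg over all of them, called 0 lower (0%) and 0 higher (0%) in knockouts at an adjusted p under 0.05. At an unadjusted p under 0.05 there were 112 lower (1.02%) and 135 higher (1.23%) genes, and DESeq2 called 0 after adjustment and 9 lower and 30 higher before it. The knockout pair lay wholly below the control pair for 1580 genes (14.4%) and wholly above it for 1520 genes (13.9%). Of all 10956 genes tested, 5846 had a log2 fold change below 0 and 5110 above 0. On simulated counts with these depths the test recovered 4% of genes changed 2-fold and 55% of genes changed 4-fold. The changed genes were drawn only from genes with at least 40 UMIs. Most changes of 2-fold were thus not detectable with these mice and depths, and changes in genes with fewer UMIs were not simulated. The number of calls moved with single mice, to 3 without control mouse 1, 8 without control mouse 2, 4 without knockout mouse 1 and 0 without knockout mouse 2.

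The smallest p-values among genes that were higher in knockouts belonged to genes carried by very few nuclei. Slc12a3, the thiazide-sensitive cotransporter of the distal convoluted tubule, had 7 and 2 UMIs in controls and 21 and 55 in knockouts, a log2 fold change of 4.59 (SE 0.80, edgeR quasi-likelihood adjusted p = 0.21). All 55 UMIs in knockout mouse 2 lay in 1 nucleus, and 16 of the 21 in knockout mouse 1 lay in another. In the control mice no nucleus held more than 1. Abca13, a transporter of the ABC family, had 9 and 6 against 32 and 14 UMIs, a log2 fold change of 2.70 (SE 0.46, adjusted p = 0.21 by edgeR), and 14 of 14 UMIs in knockout mouse 2 and 19 of 32 in knockout mouse 1 lay in 1 nucleus each.

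UMIs of distal tubule markers, Slc12a3 included, also lay in few nuclei of the knockout mice. Over Slc12a3, Trpm6, Pvalb, Calb1, Slc8a1 and Trpv5, the 2 nuclei with most UMIs held 129 of 150 UMIs in knockout mouse 1 and 90 of 111 in knockout mouse 2, but 7 of 43 and 9 of 61 in controls. In knockout mouse 1 the nucleus with 16 UMIs of Slc12a3 held 24 of the UMIs of this list, and another nucleus, with 2 of Slc12a3, held 105. In knockout mouse 2 the nucleus with 55 UMIs of Slc12a3 held 84. Slc8a1, the sodium-calcium exchanger of the connecting tubule, had 95 of its 100 UMIs in knockout mouse 1 in a single nucleus. Without the 47 nuclei that held at least 5 UMIs of such markers or of markers of the proximal tubule, thick limb or pelvis, 298 nuclei remained. Those left out were 17 of 157 and 9 of 77 in controls and 17 of 81 and 4 of 30 in knockouts. In the 298 nuclei Slc12a3 had 4, 1, 2 and 0 UMIs and Abca13 had 0, 0, 3 and 0 UMIs, with the control mice given first, too few for the fit. The log2 fold change of Slc8a1 went from 1.68 to -0.48. This exclusion was chosen after the data were seen. It read UMIs of Slc12a3 and Slc8a1 themselves, so their lower values after it were set in part by the exclusion. Abca13 was not among the markers it read.

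**Figure D4:**
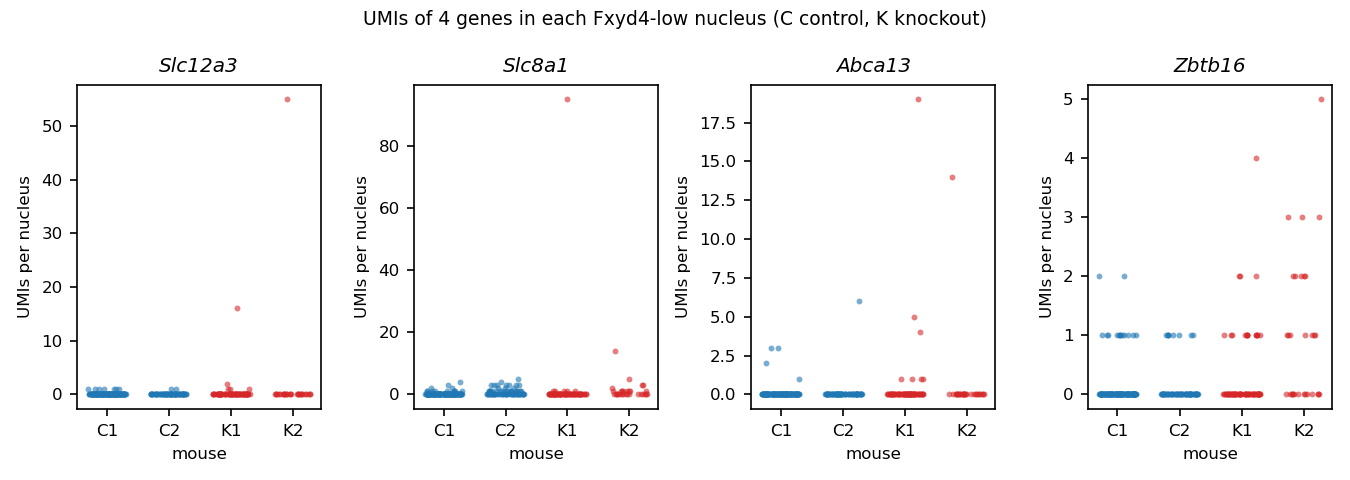
UMIs of Slc12a3, Slc8a1, Abca13 and Zbtb16 in each of the 345 Fxyd4-low nuclei, by mouse (C1 and C2 control, K1 and K2 knockout). The high totals of the first 3 genes rest on single nuclei with 55, 95 and 19 UMIs, whereas no nucleus holds more than 5 UMIs of Zbtb16 and more nuclei of the knockout mice hold any.

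Zbtb16, a zinc finger repressor that glucocorticoids induce, was spread over many nuclei. It had 16 and 8 UMIs in controls and 23 and 31 in knockouts, or 22.2 and 21.0 CPM against 61.3 and 231 CPM. Nuclei with a UMI were 8.92% and 10.4% in controls and 21.0% and 53.3% in knockouts, and the highest nucleus held 5. The log2 fold change was 2.52 (SE 0.55), with an unadjusted p of 0.000393 by edgeR and an adjusted p of 1.00. Without the 47 nuclei with markers of other segments it was 2.56, and Zbtb16 then had the smallest unadjusted p of all genes tested, 7.71e-05 by edgeR, with an adjusted p of 0.80. The result rested most on knockout mouse 2, without which the log2 fold change was 1.5, and Zbtb16 was called without control mouse 2 (edgeR adjusted p = 0.018) and without knockout mouse 1 (edgeR adjusted p = 2.2e-05). In Fxyd4-high nuclei of the same mice Zbtb16 stood at 34.7 and 55.3 CPM in controls and at 98.1 and 93.1 CPM in knockouts.

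Other genes of the glucocorticoid and clock list leaned the same way without passing the test. The list includes Zbtb16, which the counts below hold too, and it was chosen with earlier results of these data known. Of 18 genes tested, 13 had a log2 fold change above 0, as had 5110 of all 10956 genes tested. The median was 0.38 against -0.04 over all genes tested. Of the 18, 10 were higher in both knockout mice than in both control mice, as were 13.9% of all genes tested. At an unadjusted p under 0.05 edgeR had 3 of the 18 higher and 0 lower, against 1.23% and 1.02% of all genes. Per2, a repressor of the circadian clock, had 4 and 4 UMIs in controls and 11 and 10 in knockouts, a log2 fold change of 2.54 (SE 0.70) that was 1.78 without the nuclei with markers of other segments. Nr1d2, a nuclear receptor of the clock, stood at 23.6 and 15.8 against 61.3 and 67.0 CPM, a log2 fold change of 1.60 (SE 0.47). Sgk1, a kinase induced by corticosteroids, stood at 808 and 678 against 1064 and 998 CPM, and the glucocorticoid receptor Nr3c1 at 117 and 118 against 107 and 74.5 CPM. Fkbp5, a co-chaperone of the glucocorticoid receptor, stood at 29.1 and 57.8 against 80.0 and 81.9 CPM. Npas2, which promotes transcription of clock genes, had 4 and 6 UMIs in controls and 1 and 0 in knockouts. The times of day at which the mice were killed are not given in the sources used here, so time of day and genotype cannot be told apart.

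The other 6 genes of smallest p that were higher in knockouts were S100g, Trps1, Ttr, Acoxl, Cyp2j13 and Pck1, with log2 fold changes of 1.40 to 1.92, and each missed the adjustment. Acoxl, a protein related to acyl-CoA oxidases, averaged 49.2 CPM in Fxyd4-low, 7.30 CPM in Fxyd4-high and 1.22 CPM in all other nuclei. It stood at 19.4 and 28.9 CPM in controls and at 66.7 and 81.9 CPM in knockouts, and its log2 fold change was 1.71 without the nuclei with markers of other segments. The values of S100g, Trps1, Ttr and Cyp2j13 shrank in those nuclei, to log2 fold changes of 0.88, 0.59, 1.14 and 0.33. Pck1, the gluconeogenic enzyme of the proximal tubule, stood at 448 CPM over all other nuclei. Its log2 fold change did not shrink, with 1.40 in all Fxyd4-low nuclei and 1.61 without those with markers of other segments.

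The 10 genes of smallest p, with at least 40 UMIs, that were lower in knockouts also missed the adjustment. Their log2 fold changes ran from -2.06 for Nol9, a polynucleotide kinase of ribosomal RNA processing, to -1.13 for Crip1, a LIM domain protein. Rps3a1, which encodes a protein of the small ribosomal subunit, had the most UMIs of them, at 586 and 449 CPM in controls and 259 and 209 CPM in knockouts, and reads of such genes can be shared with near-identical copies. Crip1 stood at 128 and 126 CPM in controls and at 66.7 and 44.7 CPM in knockouts. Fbxo4, Tulp3, Wdr83os, Trmt6, Eva1b, Egfros and Amotl2 lay between -1.88 and -1.25. The 2 groups of mice did not overlap for any of the 10, as for 14.4% of all genes tested in that direction. Because the 10 were picked by p from the same values, this lack of overlap adds no support.

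**Figure D5:**
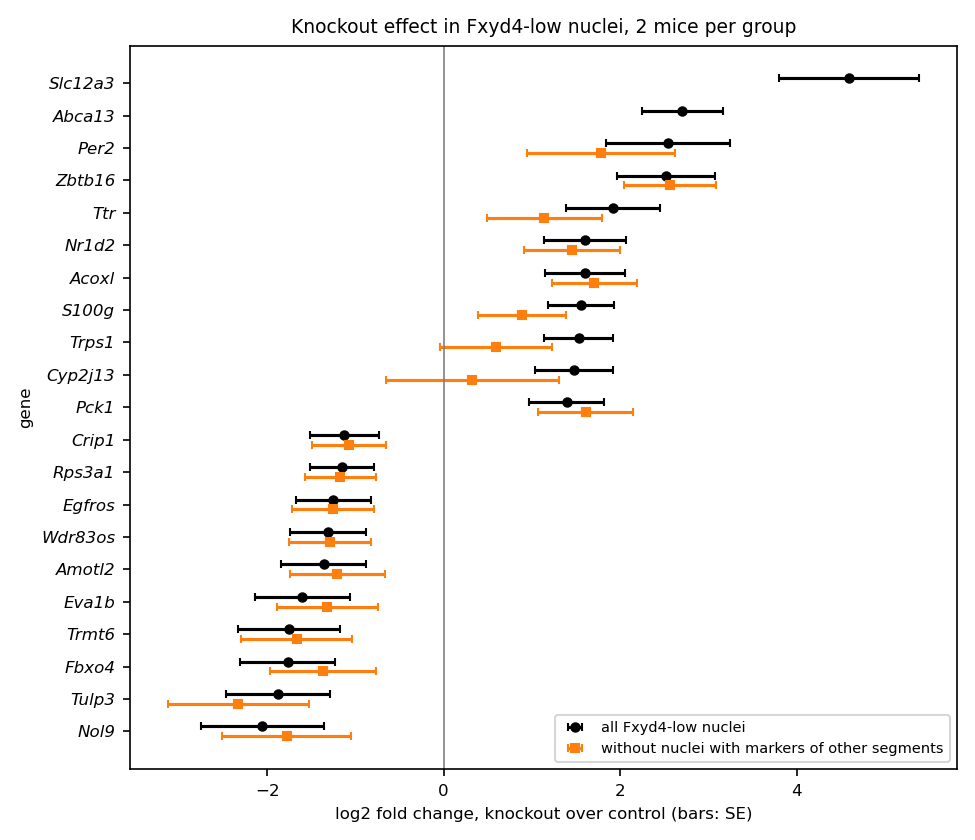
Log2 fold change of knockout over control (x axis, bars are standard errors, n = 2 mice per group) for Per2 and the 10 genes per direction of smallest unadjusted p with at least 40 UMIs, in all Fxyd4-low nuclei (black) and without nuclei with markers of other segments (orange). Slc12a3 and Abca13 have no orange point because under 10 UMIs were left, and Zbtb16 stays near 2.5.

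Tfap2a, the targeted gene (ENSMUSG00000021359, chromosome 13 from 40713802 to 40738238), had 18 and 29 UMIs in Fxyd4-low nuclei of the control mice and 26 and 6 in those of the knockout mice. In CPM this was 25.0 and 76.2 against 69.3 and 44.7, which overlap. The log2 fold change was 0.33 (SE 0.53) with an unadjusted edgeR p of 0.54, and it was -0.37 without control mouse 1 and -0.14 without knockout mouse 1. Its relative Tfap2b had 8 and 2 UMIs in controls and 1 and 2 in knockouts.

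Wnt9b and Alcam, a Wnt ligand and an adhesion molecule of the collecting duct, did not separate the groups. Wnt9b (chromosome 11) stood at 69.4 and 158 CPM in controls and at 133 and 238 CPM in knockouts, a log2 fold change of 0.64 (SE 0.44, edgeR adjusted p = 1.00). Alcam (chromosome 16) stood at 265 and 586 CPM in controls and at 229 and 276 CPM in knockouts. Its log2 fold change was -0.80 (SE 0.42, edgeR adjusted p = 1.00) and rested on control mouse 2, without which it was -0.07. Over the Fxyd4 bins Alcam went from 248 to 661 CPM, and in Fxyd4-high nuclei it stood at 424 and 545 CPM in controls and 750 and 397 CPM in knockouts.

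None of the 4 markers outside the rule passed the test of genotype. The log2 fold changes were 0.20 (SE 0.53) for Akr1b3, 0.08 (SE 0.37) for Slc14a2, -0.25 (SE 0.38) for Wnt4 and -0.07 (SE 0.46) for S100a6. A p that misses the threshold does not show that the groups were alike.

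Of the osmolyte and tonicity list, 17 of 20 genes were tested, 8 below and 9 above 0, and the median of their log2 fold changes was 0.07. Nfat5 stood at 575 and 1274 CPM in controls and at 848 and 1169 CPM in knockouts, and the betaine transporter Slc6a12 at 87.4 and 94.6 against 131 and 81.9 CPM. Hspb1 stood at 1299 and 1048 against 1317 and 745 CPM, and the heat shock protein Hsph1 at 969 and 880 against 1258 and 804 CPM. Clu, the chaperone clusterin, passed an unadjusted p under 0.05 with 6 and 7 UMIs against 16 and 4. Slc5a3, the myo-inositol transporter, had 0 UMIs in every nucleus kept of every class, so its listing at 0 says nothing about these nuclei.

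Of the water channel and vasopressin list, 15 of 20 genes were tested and none passed an unadjusted p under 0.05. Avpr2 stood at 230 and 173 CPM in controls and at 195 and 156 CPM in knockouts, and Aqp4, the basolateral water channel, at 1380 and 1860 against 1365 and 2339 CPM. Prkar2b, among the genes that marked Fxyd4-low nuclei, stood at 140 and 158 against 112 and 89.4 CPM. Pde4d, a cyclic AMP phosphodiesterase, had 1437 CPM in knockout mouse 1 and 418 to 520 CPM in the other mice. Of the sodium and potassium transport list 13 of 21 genes were tested, 6 below and 7 above 0. The sodium pump subunit Atp1b1 ranged from 1605 to 1870 CPM over the mice, and the pump regulator Fxyd2 from 3136 to 4948 CPM.

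Of 48 genes of the Wnt and planar polarity list, 29 were tested, the median of their log2 fold changes was 0.06, and none stood at an unadjusted p under 0.05. Wnt7b, another ligand of the medullary collecting duct, stood at 196 and 213 CPM in controls and at 224 and 156 CPM in knockouts. Rnf43, a ligase that removes Wnt receptors, stood at 98.5 and 165 against 82.6 and 59.6 CPM, a log2 fold change of -0.83 (SE 0.41). Among 30 tested genes of cell adhesion 22 were below 0, with a median of -0.15, beside 5846 of all 10956 genes tested below 0. In this list 6 were lower in both knockout mice, as were 14.4% of all genes tested. The tetraspanin Cd9 stood at 2015 and 1329 CPM in controls and at 2072 and 1952 CPM in knockouts. Epcam stood at 980 and 1589 against 1048 and 1445 CPM, and the cadherin Cdh16 at 693 and 904 against 781 and 849 CPM.

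Of 31 tested collecting duct transcription factors 19 were below 0 with a median of -0.13. Over all 10956 genes tested, 5846 were below 0 and 5110 above. Of the 31 factors, 7 were lower in both knockout mice, beside the same 14.4% of all genes. Mecom, a zinc finger factor, had the highest level of the list, at 1350 and 1518 against 1469 and 2019 CPM. Pax2, which marks the ureteric lineage, stood at 744 and 841 CPM in controls and at 515 and 700 CPM in knockouts, and Elf5 at 566 and 675 against 523 and 648 CPM. Tfcp2l1, a factor of the distal nephron and collecting duct, was low throughout, with 23.6 CPM on average in Fxyd4-low against 1593 CPM in sodium channel nuclei. All 7 tested genes of prostaglandin, endothelin and nitric oxide signaling were below 0, with a median of -0.47, and none passed an unadjusted p under 0.05. Of the 7, 2 were lower in both knockout mice, beside 14.4% of all genes tested. Ptges and Ptgs1, enzymes of prostaglandin synthesis, overlapped between the groups, at 311 and 299 against 227 and 395 CPM and at 235 and 318 against 240 and 283 CPM. The S100 and annexin list had 10 of 16 genes below 0 and a median of -0.06, and its member Anxa2 stood at 430 and 252 against 512 and 499 CPM. The immediate early and stress list had 12 of 17 genes above 0 and a median of 0.11, with Ier3, an early response gene, at 25.0 and 39.4 against 50.7 and 89.4 CPM and an unadjusted edgeR p of 0.046.

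Whether the knockout effect differed between Fxyd4-low and Fxyd4-high nuclei was tested as an interaction with the mouse as a term. Among 10660 genes with at least 20 UMIs over the 8 sums, edgeR's quasi-likelihood test called 0 lower (0%) and 2 higher (0.0188%) in Fxyd4-low nuclei, Slc12a3 and Gk, which encodes glycerol kinase. DESeq2 called 0. At an unadjusted p under 0.05 edgeR had 183 lower (1.72%) and 243 higher (2.28%). Gk stood at 76.3 and 28.9 CPM in controls and 179 and 96.8 CPM in knockouts in Fxyd4-low nuclei, and at 149 and 50.1 against 57.7 and 28.6 CPM in Fxyd4-high nuclei. The difference of the log2 fold changes was 2.59 (SE 0.48, edgeR adjusted p = 0.021) for Gk and 5.05 (SE 1.01, adjusted p = 0.046 by edgeR) for Slc12a3.

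Both calls were lost without the nuclei that held markers of other segments. There the difference was 2.29 for Gk (edgeR adjusted p = 1.00) and 0.14 for Slc12a3 (edgeR adjusted p = 1.00), and no gene was called. Those nuclei held 31 of 55 and 6 of 11 Gk UMIs in controls and 50 of 67 and 10 of 13 in knockouts. Slc12a3 was among the markers by which they were left out, so the loss of its call was set in part by the exclusion. Gk was not among those markers. The call of Gk was also lost with the classes split at 0.1% of UMIs, where its difference was 1.15 (edgeR adjusted p = 1.00), and without control mouse 1, knockout mouse 1 or knockout mouse 2, and the call of Slc12a3 without control mouse 1 or knockout mouse 2. For Zbtb16, Alcam, Slc14a2 and Akr1b3 the difference missed the adjustment (edgeR adjusted p = 1.00 for each). It was 1.49 (SE 0.57) for Zbtb16, -0.98 (SE 0.33) for Alcam, -0.58 (SE 0.32) for Slc14a2 and -0.19 (SE 0.30) for Akr1b3. Trps1 also missed the adjustment, with a difference of 1.71 (SE 0.39, edgeR adjusted p = 0.13). Without the nuclei with markers of other segments the difference for Trps1 was 1.19. In Fxyd4-high nuclei alone, edgeR's quasi-likelihood test called 0 of 10338 genes, with 198 lower and 143 higher at an unadjusted p under 0.05.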

How the data were processed

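The authors counted UMIs with Cell Ranger 3.0.2 against mm10, per the submitters' processing notes, which also name Seurat 3.2.1.35. The deposited files hold raw UMI counts per gene and barcode, empty droplets included, without normalization. Per library, only the top 10000 barcodes by UMI total were considered, and a barcode was kept as a nucleus if it had over 500 genes but fewer than 4000, with mitochondrial UMIs below 5%. Doublets were not called. Instead, nuclei with markers of other segments were left out as an alternative. The members, the gene lists and the rule for named genes were chosen with earlier results of these data known. Named were the genes of the rule and its markers, Tfap2a, Tfap2b, Wnt9b and Alcam, per direction up to 10 called genes filled up by smallest unadjusted p among genes with at least 40 UMIs, per list up to 5 genes by level and 3 by p, 12 genes per direction by ratio between classes, and up to 5 calls per direction of the difference test. Slc8a1, Fkbp5, Npas2, Slc6a12, Slc5a3 and markers of other segments were named after their values were seen. Some genes that the rule would name are not reported here. Bmal1 is listed in the files as Arntl, and Hoxd4 had no matching symbol.

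UMIs were summed per mouse and tested with edgeR 4.0.16 (TMM, R 4.3.3), called at an adjusted p under 0.05 after Benjamini-Hochberg adjustment over all genes tested. DESeq2 1.42.0 was an alternative. Proximal tubule nuclei held at least 5 UMIs over Lrp2, Slc34a1, Slc5a12 and Slc13a3. CPM are UMIs per 1000000 UMIs of a class in a mouse. Where no source says that the mice of a group came from separate litters, p-values measure the spread between these mice. Both tests were tried on simulated data with 200 changed genes, drawn from genes with at least 40 UMIs. The genotype test made 2 false calls among 10956 genes and recovered 29.5%, and the difference test made 2 among 10660 and recovered 27.5%.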

Additional observations from a re-analysis of the deposited data

Results flagged for a closer look

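The knockout effect on Gk differed between Fxyd4-low and Fxyd4-high nuclei by 2.59 on the log2 scale in the interaction test (edgeR adjusted p = 0.021). The knockout effect on Slc12a3 differed by 5.05 (edgeR adjusted p = 0.046). Both genes were flagged because the difference itself passed the test. For Slc12a3, 1 nucleus of knockout mouse 2 held 55 of 55 UMIs. Without nuclei with markers of other segments the difference was 0.14 and the call was lost, but Slc12a3 was itself among those markers. For Gk, such nuclei held 31 of 55 and 6 of 11 UMIs in the control mice and 50 of 67 and 10 of 13 in the knockout mice. Without them the call of Gk was lost while its difference was 2.29.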

How the results depend on the processing

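The mean share of Fxyd4-low nuclei was lower in the knockout mice under every gate and denominator tried, but single mice overlapped among nuclei outside the proximal tubule, among nuclei with Aqp2, at an Fxyd4 limit of 2 and within the gate without that limit. With each mouse left out the difference ranged from -1.28 to -0.669 percentage points. Genes called higher in the knockout mice numbered 0, but 3 with no filter on low counts (Abca13, Slc12a3, Zbtb16), 7 with the replicate number as a block, and 0 to 7 with each mouse left out. Genes called lower numbered 0, with 0 to 1 when each mouse was left out. The numbers shared by mice are not said to pair them. Deviations of mice numbered 1 correlated with r = 0.256 over 7048 genes. The 7 blocked calls were Abca13, S100g, Slc12a3, Slc8a1, Trps1, Ttr and Zbtb16. The 2 genes that differed between classes became 0 with DESeq2, 0 without the mouse term, 0 without nuclei with markers of other segments, 5 with the split at 0.1% of UMIs (Gk not among them, at 1.15 with an edgeR adjusted p of 1.00), and 0 to 7 with each mouse left out. Of 381 values of 35 named genes under alternatives, 358 kept direction and side of the threshold, 14 passed it and 9 reversed. The reversals were Slc8a1 at -0.48 without nuclei with markers of other segments, S100a6 at 0.025 without mixed nuclei and 0.041 under 1% mitochondrial UMIs, and, with each mouse left out, ranges of -0.37 to 1.29 for Tfap2a, -0.071 to 0.24 for Slc14a2, -0.19 to 0.088 for S100a6 and -0.15 to 1.62 for Pde4d. The cause was not tested, and Slc8a1 was itself among the markers of other segments by which nuclei were left out. With a mouse left out, the lone mouse of a group is assumed to vary like the others. Depth limits the test most in knockout mouse 2, with 30 nuclei.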
